A study of Homo sapiens with 3 samples.

Results

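SR and hnRNP proteins are the main families of RNA-binding proteins that decide which exons of a nascent transcript are kept. Their genes were taken from the probe annotation as every gene named alone on a probe set whose symbol is SRSF with a number, begins with HNRNP, or is PTBP1, PTBP2, PTBP3, TRA2A or TRA2B. This gave 36 genes of 19775 named on the array: 10 SRSF genes, both TRA2 genes, the 3 PTBP genes, 19 protein-coding HNRNP genes, the pseudogene HNRNPA3P1 and HNRNPD-DT, a noncoding transcript beside HNRNPD. Of these, 35 counted as measured, which means a signal above a floor of 45.5 units on at least 1 array, and 13466 genes counted as measured in all. SRSF12 did not, with signals of 6.2 in OIS, 17.5 in RS and 40.0 in growing cells. The filter thus removed 1 gene, and 34 of the 35 were above the floor on all 3 arrays, the exception being HNRNPA3P1.

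RNA came from IMR-90 ER:Ras cells, human lung fibroblasts that carry an inducible Ras fusion protein, and each condition had 1 array. Cells in oncogene-induced senescence (OIS) had been kept for 6 days in 100 nM 4-OHT (4-hydroxytamoxifen), the ligand that switches such fusions on. Cells in replicative senescence (RS) had been passaged repeatedly for 10 weeks, and their treatment label names no 4-OHT. The growing cells had no treatment. All 3 cultures carry the ER:Ras construct, so the growing and RS cells differ from plain IMR-90 cells too, and the effects of Ras and of 4-OHT itself cannot be told apart here. With 1 array per condition there is no replicate and no test, and so few arrays set the limit of precision. The only repeat is a further probe set for the same gene on the same array. For 5573 genes with such a pair above the floor on every array, the SD of the difference between their log2 ratios was 0.43 for OIS and 0.41 for RS, each relative to growing cells, and 0.44 for OIS relative to RS. That spread covers probe error and not differences between cultures.

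SR proteins join an RNA recognition motif to a tail rich in arginine and serine, bind enhancers within exons and recruit the spliceosome, and kinases of the SRPK and CLK families set their activity and location. The hnRNP proteins coat nascent RNA and often act against them by silencing exons, and several also govern the export, translation and decay of mRNA. Lower mRNA of some of these factors has been described in senescent human fibroblasts, and PTBP1 is known to be needed for the inflammatory secretion of Ras-induced senescent cells. Array signals report the amount of mRNA detected by a probe set, not protein amount, phosphorylation or splicing itself, and in bulk samples fewer cells of a type and less RNA per cell cannot be told apart.

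All 12 fibroblast markers were above the floor on every array, while CDH1, KRT5 and CLDN4 (epithelial), CDH5 and KDR (endothelial), PTPRC (blood) and RBFOX3, SYP, GFAP and SOX10 (neural) were below it on all 3. Above it on all 3 were TEK, PECAM1 and VWF (endothelial), HBB and ITGAM (blood), EPCAM, KRT8 and KRT18 (epithelial) and MAP2 (neural), and KRT19, CD3E and CD14 were above it on 1 array each. TEK, an angiopoietin receptor, had a signal of 1275 in OIS, 2033 in RS and 1251 in growing cells. The 5 endothelial markers summed to 1570 in OIS, 2175 in RS and 1368 in growing cells, the 5 blood markers to 434, 357 and 368 and the 5 neural markers to 118, 227 and 213 in the same order. The 7 epithelial markers summed to 3200 in OIS, 6531 in RS and 3360 in growing cells, nearly all of it KRT18, and the part of these differences in the values below was not tested. Summed over 7 proliferation markers the signal was 4635 in OIS, 5720 in RS and 33595 in growing cells. The senescence cytokine IL6 had a signal of 14925 in OIS, 1193 in RS and 753 in growing cells. Proliferation thus moved with every comparison against growing cells, and its part in the values below was not tested.

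Nearly all of the splicing factor genes had lower signals in both senescent cultures than in growing cells, by modest amounts. In OIS 33 of the 35 measured genes (94.3%) had a ratio below 0 on the log2 scale, against 49.9% of all measured genes, and in RS 32 (91.4%) did, against 49.3%. The median log2 ratio was -0.29 for OIS over growing and -0.43 for RS over growing, where all measured genes had medians of 0.00. All 19 protein-coding HNRNP genes under the rule and all 3 PTBP genes were below 0 in both. HNRNPH2, outside the rule because its probe set names a second gene, was above 0 in both. Of the 35 genes 31 were below 0 in both, against 33.8% of all measured genes, and the 4 that were not were SRSF5, SRSF8, SRSF10 and TRA2A. OIS and RS were set against the same growing array, so the pair of comparisons does not repeat the observation independently. Among the 5186 measured genes with a mean signal of 1000 or more, 46.6% were below 0 in OIS and 46.7% in RS, against 30 and 29 of the 32 splicing factor genes in that range. At least 1.5-fold lower in that range were 3 of the 32 in OIS, against 10.7%, and 9 of the 32 in RS, against 8.35%.

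**Figure D1:**
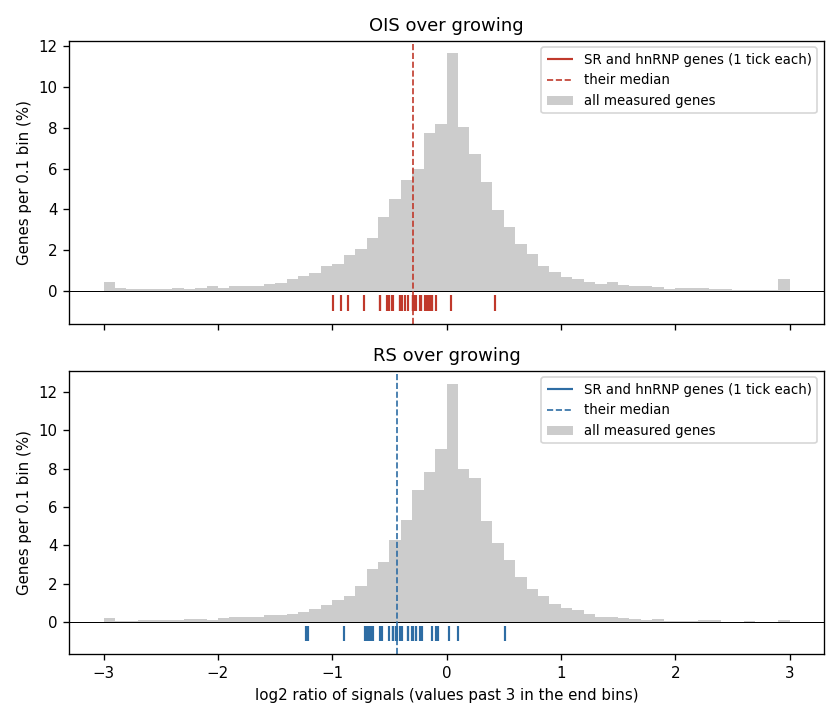
Histograms give the percentage of all 13466 measured genes per bin of 0.1 log2 units of the signal ratio, for OIS over growing (top) and RS over growing (bottom). Each tick below the axis is 1 of the 35 SR and hnRNP genes, and the dashed lines mark their medians of -0.29 and -0.43; the ticks lie left of 0 except for 2 in OIS and 3 in RS.

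Few of these differences were large. At least 1.5-fold lower in OIS were 4 of 35 genes (11.4%), PTBP2, HNRNPH3, HNRNPA3 and HNRNPA0, while 14.8% of all measured genes were, so the count of larger differences is no higher than the background. In RS 10 of 35 (28.6%) were at least 1.5-fold lower, against a background of 13.2%. By the brightest probe set none was 1.5-fold higher in either, against 11.7% of all measured genes in OIS and 10.5% in RS, while HNRNPA1 was in RS by the median of its probe sets. At 2-fold, none of the genes was lower in OIS and PTBP2 and HNRNPUL1 were in RS, with backgrounds of 6.63% and 5.58%. In OIS, SRSF7 and HNRNPA1 lay just outside 1.5-fold at log2 ratios of -0.579 and -0.580, and in RS so did HNRNPLL, at -0.582. The count in OIS depends on how the values are treated. It was 8 of 35 after quantile normalization, against 13.3% of all genes. Without suffixed probe sets (names ending in _s_at or _x_at, which can match more than 1 transcript) it was 9 of 28, against 15.4%.

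**Figure D2:**
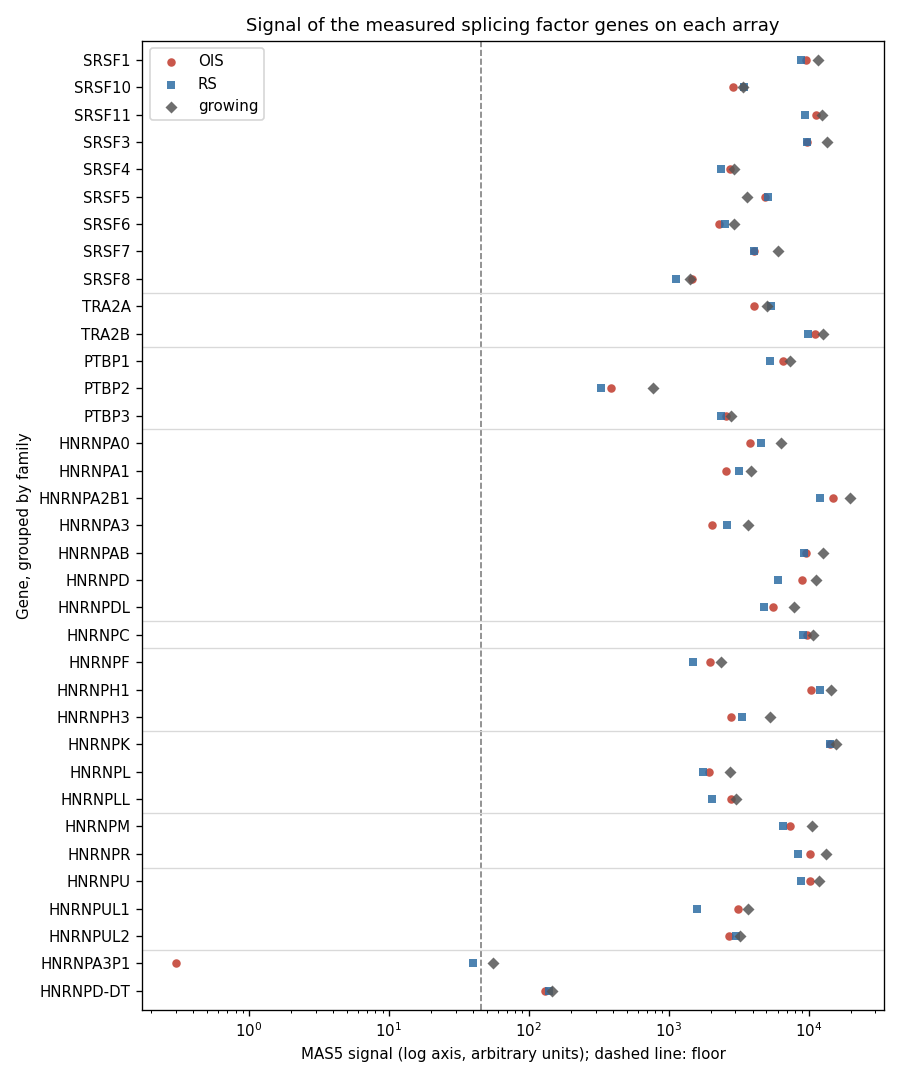
MAS5 signal (log axis) of the brightest probe set of the 35 measured genes on the OIS, RS and growing arrays, grouped by family, with the floor of 45.5 as a dashed line. Signals are comparable along a row and not between rows; the growing array is the highest for 31 of the 35 genes.

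Of the 9 measured SRSF genes 7 were lower in OIS and 7 in RS, with medians of -0.23 and -0.34, and by the brightest probe set none passed 1.5-fold in either direction. Among the other probe sets, some of SRSF1, SRSF3 and SRSF7 were more than 1.5-fold lower in both, as was one of SRSF10 in RS. Others of SRSF1 and SRSF11 were more than 1.5-fold higher in RS. SRSF1, the founding member, which also acts in mRNA translation, had signals of 9564 in OIS, 8824 in RS and 11725 in growing cells, 1.23-fold lower in OIS and 1.33-fold lower in RS. SRSF3, the smallest of the family, whose loss is known to bring fibroblasts to senescence, had 9690 in OIS, 9740 in RS and 13484 in growing cells. Both senescent arrays thus stood 1.39-fold and 1.38-fold below the growing array for SRSF3, and all 4 other probe sets of the gene were below 0 in both comparisons. Over its 5 probe sets the log2 ratio was -0.66 ± 0.28 in OIS and -0.48 ± 0.12 in RS (SD over probe sets).

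SRSF7, an adaptor for mRNA export like SRSF3, was the lowest of the SRSF genes by the brightest probe set, with 4062 in OIS, 4107 in RS and 6068 in growing cells, 1.49-fold and 1.48-fold lower. By the mean over probe sets SRSF3 was lower than SRSF7 in OIS, and 1 SRSF7 probe set was above 0 in both, at 0.05 and 0.11. SRSF5 was the one gene with higher signals in both senescent cultures. Its brightest probe set had 4863 in OIS, 5164 in RS and 3632 in growing cells, and its second had 3920, 3969 and 3067 in the same order. The mean of the pair was 0.39 ± 0.05 in OIS and 0.44 ± 0.10 in RS on the log2 scale (SD over 2 probe sets), smaller than 1.5-fold but alike on both. SRSF4 and SRSF6 were lower in both by 1.06-fold to 1.28-fold, and SRSF11 by 1.11-fold in OIS and 1.31-fold in RS, although the mean over 3 probe sets of SRSF11 was 0.04 and 0.09. SRSF8 was within 1.02-fold of growing cells in OIS and 1.26-fold lower in RS, and SRSF10, a splicing repressor of heat-shocked cells, was 1.18-fold lower in OIS and within 1.01-fold in RS.

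SRSF2, a regulator often mutated in blood cancers, and SRSF9 are named only on probe sets that carry a second gene and so fall outside the rule. The 3 probe sets naming SRSF2 and MIR636 had log2 ratios of -0.56 to -0.36 in OIS and -0.62 to -0.17 in RS. The brightest of them had signals of 7007 in OIS, 8006 in RS and 8996 in growing cells. Both probe sets naming SRSF9 and GATC were higher in OIS, by 1.10-fold and 1.32-fold, and within 1.09-fold of growing cells in RS.

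The TRA2 proteins are SR-like activators that bind purine-rich enhancers. TRA2B had 11062 in OIS, 9959 in RS and 12620 in growing cells, lower by 1.14-fold in OIS and 1.27-fold in RS, with both other probe sets of the same sign. TRA2A had 4100 in OIS, 5390 in RS and 5025 in growing cells. It was thus lower than growing cells in OIS and slightly higher in RS, and all 3 probe sets above the floor gave those signs, with means of -0.28 ± 0.02 in OIS and 0.26 ± 0.16 in RS.

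The PTB proteins bind pyrimidine tracts and repress exons. PTBP2, the form best known from neurons, where it replaces PTBP1, had the lowest ratio of the 35 genes in both comparisons by the brightest probe set and the deposited scaling. After quantile normalization HNRNPH3 was lower in OIS (-0.97, against -0.91 for PTBP2) and HNRNPUL1 in RS (-1.23, against -1.15), and the same 2 genes were lower with the median of all probe sets. Its signals were 387 in OIS, 330 in RS and 772 in growing cells, 2.34-fold lower in RS and just short of 2-fold lower in OIS, at a log2 ratio of -0.998. A second, dimmer probe set, at 50.5, 62.0 and 69.9, gave log2 ratios of -0.47 and -0.17, so its size depends on the probe set and its sign does not. PTBP1 had 6570 in OIS, 5287 in RS and 7336 in growing cells, 1.12-fold lower in OIS and 1.39-fold lower in RS. Another 5 probe sets name PTBP1 together with MIR4745. In OIS their log2 ratios lay between -0.19 and -0.01, and in RS between -0.95 and -0.27. All 6 thus placed PTBP1 lower in RS than in OIS, by log2 differences of 0.11 to 0.94 for OIS over RS among those 5 and 0.31 for the first. PTBP3 was lower by 1.09-fold in OIS and 1.17-fold in RS.

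The hnRNP A/B and D proteins bind exonic silencers and AU-rich elements. All 7 of their genes were lower in both, with medians of -0.50 for each comparison. HNRNPA1, a silencer that counters SRSF1 in splice site choice, had 2575 in OIS, 3208 in RS and 3851 in growing cells. Its 2 dimmer probe sets gave log2 ratios of -0.33 and -0.29 in OIS but 0.66 and 0.74 in RS. The 2 bright probe sets that also name HNRNPA1 pseudogenes gave -0.13 and -0.19 in OIS and -0.18 and -0.17 in RS. The direction of HNRNPA1 in RS thus depends on the probe set, while in OIS all 5 were below 0. HNRNPA2B1, a partner of HNRNPA1 on many transcripts, had 14974 in OIS, 12142 in RS and 19817 in growing cells, 1.32-fold lower in OIS and 1.63-fold lower in RS. Its other probe sets gave -0.02 and 0.13 in RS, so the call in RS rests on the brightest alone.

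HNRNPA0 had 3837 in OIS, 4572 in RS and 6343 in growing cells, 1.65-fold and 1.39-fold lower. Of its other probe sets in OIS one gave -0.71 and one 0.10. HNRNPA3 had 2035 in OIS, 2607 in RS and 3692 in growing cells, 1.81-fold and 1.42-fold lower, and its 2 other probe sets agreed in sign. The 3 probe sets naming HNRNPA3 with HNRNPA3P1 gave -0.66 to -0.40 in OIS and -0.70 to -0.62 in RS. The pseudogene HNRNPA3P1 itself had 0.3 in OIS, 39.7 in RS and 55.7 in growing cells, above the floor only in growing cells and at least 1.22-fold lower in both. HNRNPAB, with a single probe set, was 1.32-fold and 1.36-fold lower.

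HNRNPD, known as AUF1, binds AU-rich elements in cytokine mRNAs and speeds their decay. It had 8935 in OIS, 6063 in RS and 11265 in growing cells, 1.26-fold lower in OIS and 1.86-fold lower in RS. Of 5 other probe sets 4 were below 0 in both, with log2 ratios between -1.002 and -0.73 in RS, and 1 pointed the other way, at 753 in OIS, 962 in RS and 512 in growing cells. HNRNPDL, its close relative, had 5531 in OIS, 4795 in RS and 7848 in growing cells, 1.42-fold and 1.64-fold lower. Its 4 other probe sets above the floor on all arrays gave -0.97 to 0.29 in RS, and the only unsuffixed 1 of them gave -0.14. HNRNPD-DT differed little, at 131 in OIS, 140 in RS and 147 in growing cells.

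The hnRNP F and H proteins bind runs of guanines. HNRNPH3 had the most uniform difference among the genes past 1.5-fold in OIS. Its signals were 2776 in OIS, 3366 in RS and 5264 in growing cells, 1.90-fold lower in OIS and 1.56-fold lower in RS. Its 4 probe sets gave -0.92 ± 0.03 in OIS and -0.65 ± 0.10 in RS (SD over probe sets), so the difference from growing cells was far above the spread between probe sets. All 4 have names ending in _s_at or _x_at, so the gene has no value once such probe sets are left out. Whether the 4 read the same sequence was not tested. HNRNPH3 and PTBP2 were the 2 of 35 genes at least 1.5-fold lower in both, a share near the 7.08% of all measured genes that were, in comparisons that share the growing array. HNRNPF had 1984 in OIS, 1500 in RS and 2383 in growing cells, 1.20-fold and 1.59-fold lower on its single probe set. HNRNPH1, which also binds guanine runs, was 1.38-fold and 1.20-fold lower, and HNRNPH2, named only together with RPL36A-HNRNPH2, had 5873 in OIS, 4683 in RS and 4505 in growing cells.

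HNRNPL, a protein of CA repeats, had 1937 in OIS, 1751 in RS and 2751 in growing cells, 1.42-fold and 1.57-fold lower, and its second probe set gave -0.66 and -0.64. HNRNPLL, a relative of HNRNPL, was 1.09-fold lower in OIS and, as given above, just short of 1.5-fold lower in RS. HNRNPK, a protein of cytosine-rich sequences and a p53 cofactor, was close to growing cells in both, with 14195 in OIS, 14316 in RS and 15617 in growing cells. By its brightest probe set HNRNPC, which binds uridine tracts, was also close to growing cells, with 9778 in OIS, 9150 in RS and 10752 in growing cells. All 4 other probe sets above the floor on every array were below 0 in both, at -0.31 to -0.08 in OIS and -0.66 to -0.29 in RS. The mean over its probe sets was -0.21 in OIS and -0.41 in RS.

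HNRNPM had 7350 in OIS, 6538 in RS and 10547 in growing cells, 1.43-fold and 1.61-fold lower. Its other bright probe set gave -0.56 and -0.59, and 2 dim ones, with signals of 48.9 to 87.3, gave values between -0.33 and 0.12. HNRNPR, a relative of the mRNA-binding protein SYNCRIP, had 10237 in OIS, 8341 in RS and 13380 in growing cells, 1.31-fold and 1.60-fold lower. Its other probe sets had the same sign, at -0.88 and -0.63 in OIS and -1.11 and -0.10 in RS.

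HNRNPU binds nuclear scaffold DNA and RNA. It had 10217 in OIS, 8832 in RS and 11930 in growing cells, 1.17-fold and 1.35-fold lower. HNRNPUL1, a relative of HNRNPU with a part in DNA break repair, had 3155 in OIS, 1589 in RS and 3688 in growing cells. It was 1.17-fold lower in OIS and 2.32-fold lower in RS, so that on this probe set RS alone stood well below the other arrays. Its second probe set, at 141 in OIS, 119 in RS and 174 in growing cells, gave -0.30 and -0.54. HNRNPUL2 was 1.21-fold and 1.06-fold lower.

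**Figure D3:**
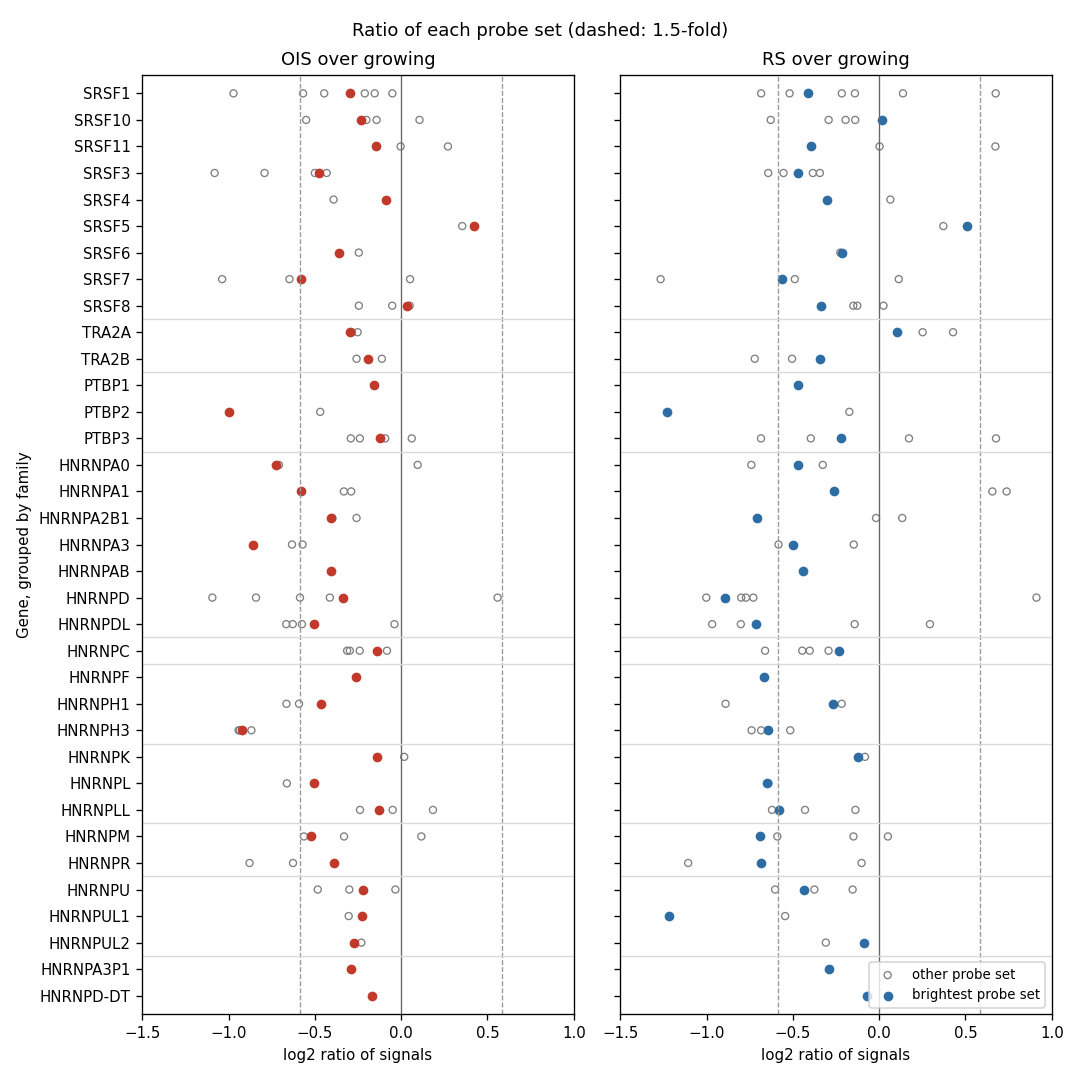
Log2 ratio of signals for OIS over growing (left) and RS over growing (right), with the brightest probe set of each gene as a filled point and its other probe sets above the floor on all 3 arrays as open circles. Dashed lines mark 1.5-fold; no open circle passes it on the right in OIS, and 6 do in RS.

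The other probe sets of a gene mostly shared the direction of the brightest, with exceptions in RS that passed 1.5-fold. Of 75 other probe sets above the floor on all arrays, belonging to 30 genes, 64 had the sign of the brightest one in OIS and 56 in RS, and the median SD over the probe sets of a gene was 0.15 in OIS and 0.24 in RS. In OIS 20 of the 75 were at least 1.5-fold lower and none was higher, against 16.8% and 10.5% of the 9641 such probe sets of all genes. In RS 22 were lower and 6 were higher, against 13.4% and 9.83%, and the 6 belonged to HNRNPA1 (2), HNRNPD, PTBP3, SRSF1 and SRSF11. That of SRSF1 had 376 in OIS, 667 in RS and 418 in growing cells, and that of PTBP3 had 584, 894 and 559 in the same order. In both of these genes the brightest probe set was lower in RS. What part of each transcript these probe sets read is not given in the sources used here. By the mean over probe sets, 32 of 34 genes were below 0 in OIS and 30 of 34 in RS.

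Set directly against each other, OIS and RS differed little across the splicing factors by the brightest probe set of each gene. The median log2 ratio of OIS over RS was 0.10, with 20 genes above 0 and 14 below, where 48.1% of all measured genes were below, and 1 of 35 was at least 1.5-fold higher in OIS, against 12.4% of all measured genes. That gene was HNRNPUL1, 1.99-fold higher in OIS, although its second probe set gave 1.18-fold. HNRNPD, at 1.47-fold, HNRNPLL, at 1.37-fold, and HNRNPF, at 1.32-fold, came next. By the brightest probe set none was 1.5-fold lower in OIS than in RS, against 13.0%, and the lowest was TRA2A, 1.31-fold lower. Of the 75 other probe sets 40 had the sign of the brightest one here, fewer than in the comparisons with growing cells. The 2 other probe sets of HNRNPA1 were 1.98-fold and 2.04-fold lower in OIS than in RS. Further ones past 1.5-fold were lower in OIS for SRSF1, SRSF3, TRA2A and PTBP3 and higher for HNRNPLL and TRA2B. When suffixed probe sets were left out the median was -0.08, so no direction between the senescent states is given for the genes as a whole.

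Promoter sequence of 250 bases before to 50 bases after the start of each gene was available from RefSeq (GRCh38.p14) for 33 of the 36 genes. The 4 below were chosen for their values: PTBP2 and HNRNPH3 were lower in both states, HNRNPUL1 mainly in RS, and SRSF5 was higher in both. Capitals mark matches, on either strand, to the motifs E2F (TTTGGCGC or TTTCGCGC), CHR (TTTGAA), NRF1 (its known palindrome), ETS (CCGGAAGT), CCAAT and E-box (CACGTG), and no marked matches overlap. All 4 genes lie on the forward strand.
PTBP2, chr1:96722388-96722687, plus strand: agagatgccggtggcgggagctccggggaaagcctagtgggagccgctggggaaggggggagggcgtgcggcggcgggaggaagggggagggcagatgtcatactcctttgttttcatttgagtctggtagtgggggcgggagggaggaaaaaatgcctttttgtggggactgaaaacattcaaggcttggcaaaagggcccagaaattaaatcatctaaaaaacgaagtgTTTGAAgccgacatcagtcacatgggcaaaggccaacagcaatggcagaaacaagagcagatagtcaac
HNRNPH3, chr10:68331443-68331742, plus strand: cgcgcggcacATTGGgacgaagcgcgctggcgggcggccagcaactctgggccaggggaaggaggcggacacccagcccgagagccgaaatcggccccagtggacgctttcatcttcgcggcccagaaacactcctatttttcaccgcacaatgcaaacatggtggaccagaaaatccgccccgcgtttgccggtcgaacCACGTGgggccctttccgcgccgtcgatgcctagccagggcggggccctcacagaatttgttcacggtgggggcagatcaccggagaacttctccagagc
HNRNPUL1, chr19:41262307-41262606, plus strand: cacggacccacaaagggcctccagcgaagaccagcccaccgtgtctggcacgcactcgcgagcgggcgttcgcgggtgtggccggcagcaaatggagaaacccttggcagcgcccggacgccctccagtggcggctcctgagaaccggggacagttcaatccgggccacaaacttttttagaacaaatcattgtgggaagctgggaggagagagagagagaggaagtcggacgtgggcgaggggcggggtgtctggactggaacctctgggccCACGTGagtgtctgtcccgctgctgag
SRSF5, chr14:69766892-69767191, plus strand: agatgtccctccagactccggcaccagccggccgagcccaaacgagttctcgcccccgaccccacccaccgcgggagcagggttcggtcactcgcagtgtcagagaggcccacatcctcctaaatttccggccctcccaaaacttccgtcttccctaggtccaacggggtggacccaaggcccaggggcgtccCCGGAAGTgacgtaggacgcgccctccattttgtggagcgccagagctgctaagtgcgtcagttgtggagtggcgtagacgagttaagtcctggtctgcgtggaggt

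The motif matches in these windows are descriptions of sequence and not binding sites. None of the 33 promoters held the E2F or NRF1 letters, which 1.92% and 2.24% of the promoters of 10869 measured genes did. The CHR letters were in 3 (9.09%, against 10.2%), in PTBP2, HNRNPR and SRSF6. The ETS letters were in 3 (9.09%, against 8.27%), in SRSF5, SRSF4 and HNRNPD. CCAAT was in 15 (45.5%, against 36.5%), and in HNRNPH3 it reads on the reverse strand as ATTGG. The E-box was in 6 (18.2%, against 9.91%), HNRNPA3, HNRNPD, HNRNPDL, HNRNPH3, HNRNPM and HNRNPUL1. Each of these was at least 1.5-fold lower in OIS or RS. So were PTBP2, HNRNPA0, HNRNPA2B1, HNRNPF, HNRNPL and HNRNPR, whose promoters did not hold the E-box letters. Over all measured genes 14.8% were at least 1.5-fold lower in OIS and 13.2% in RS, and the share lower in either was not computed. The 6 genes with the E-box were noticed after the values were seen, and the difference in the share with an E-box rests on few genes. A link between the E-box and the signals was not tested.

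Other genes of the splicing pathway were taken from 4 lists, each read from its brightest probe set alone, and their other probe sets were not checked. Among 69 measured core spliceosome genes 43 (62.3%) were below 0 in OIS and 60 (87.0%) in RS, against 49.9% and 49.3% of all measured genes, with medians of -0.10 and -0.34. At least 1.5-fold lower were 7 (10.1%) in OIS and 17 (24.6%) in RS, against 14.8% and 13.2% of all measured genes, and higher were 1 and 0, against 11.7% and 10.5%. LSM5 and LSM2, parts of the ring that binds U6 RNA, were the lowest above the floor in RS, with 4080 and 707 in RS against 8775 and 1640 in growing cells, and LSM5 was also lowest in OIS, at 4373. The splicing factor SLU7 was the highest in OIS, with 1996 in OIS and 1276 in growing cells. The 12 measured genes for kinases of SR proteins and for nuclear importers had medians of -0.02 in OIS and 0.03 in RS. The SR protein kinase CLK3 was 1.70-fold and 1.51-fold higher, CLK4 was 1.32-fold and 1.22-fold higher, and the importer TNPO3 was 1.45-fold and 1.17-fold lower. Among 9 measured genes of nonsense-mediated decay, the pathway that destroys many unproductively spliced transcripts of SR genes, the medians were -0.11 and 0.04. In OIS 1 (11.1%) was 1.5-fold lower, against 14.8% of all measured genes. It was DHX34, which was below the floor there.

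**Figure D4:**
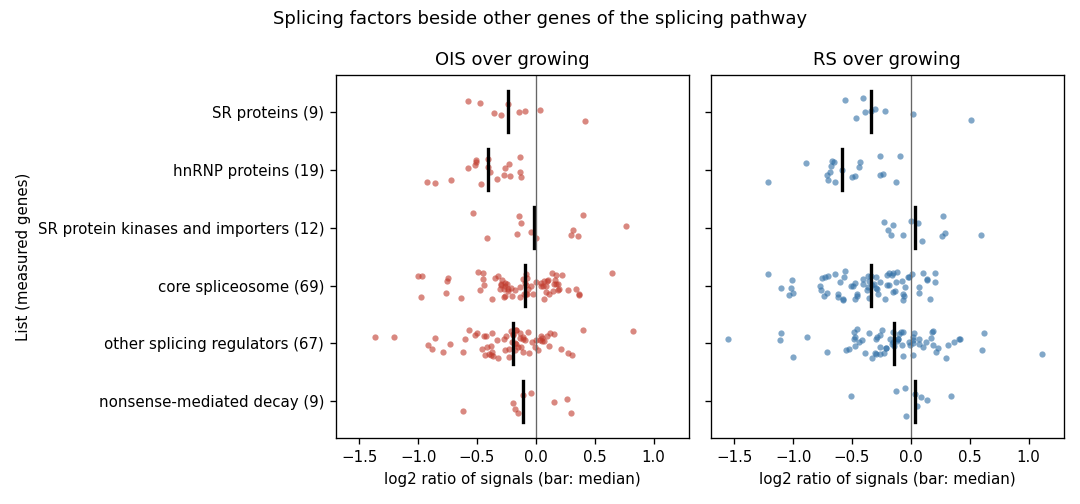
Log2 ratio of signals for OIS over growing (left) and RS over growing (right) of each measured gene in 6 lists, with the number measured in brackets and black bars at the medians. The hnRNP bar lies farthest left in each panel, at -0.40 and -0.58, and the kinase and importer bar is near 0 in both.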

How the data were processed

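The deposited table holds 1 linear intensity per probe set for 54613 probe sets on 3 arrays. Per the submitters' processing notes it was made with MAS5 (version and settings: not given in the sources used here), and per the labels' protocols biotinylated cRNA was prepared from total RNA. The 2% trimmed mean was 497 on all 3 arrays, so any shift shared by all genes has been scaled away. Probe sets naming 1 gene in the platform annotation (41091) were used, and 1801 naming several genes only as a check. Values below the pooled median of 45.5 were raised to it, log2 was taken, and each gene was read from its brightest probe set, by mean log2 over the arrays. Genes at or past 1.5-fold and 2-fold were counted beside the same counts over all measured genes. Gene names follow the platform annotation, and protein sequences are not shown. Signals are printed for the genes past 1.5-fold in any comparison and for further fixed members, and in each context list the 2 highest and 2 lowest genes above the floor on both arrays could be named. The genes, lists and sizes were chosen with earlier results of these data known. Alternatives were quantile normalization, centring on the median, floors at the 25th percentile (11.7) and 60th percentile (88.8) and a pseudocount of 16 without a floor. Further ones were the median of all probe sets, leaving out suffixed probe sets (names ending in _s_at or _x_at) and no filter on low values. The steps were tested on simulated data. Calculations used Python 3.11.15, numpy 2.4.6, pandas 2.3.3 and matplotlib 3.10.9.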

Additional observations from a re-analysis of the deposited data

Results flagged for a closer look

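In 3 genes OIS and RS lay on opposite sides of growing cells by the brightest probe set, each with 1 array, so the difference was not tested. The log2 ratio of OIS over RS was -0.39 for TRA2A, -0.25 for SRSF10 and 0.37 for SRSF8 by the brightest probe set. For TRA2A the 2 other probe sets above the floor on all arrays gave -0.50 and -0.71, in the same direction. For SRSF10 the RS array exceeded the growing array by 1.01-fold, and its 4 other probe sets were below 0 in RS over growing, from -0.63 to -0.14, so the opposite signs rest on 1 probe set. For SRSF8 the OIS array exceeded the growing array by 1.02-fold, and its 3 other probe sets gave -0.27 to 0.18 for OIS over RS. Its mean over probe sets was below 0 in both, at -0.05 in OIS over growing and -0.15 in RS over growing. A probe set left out of the comparisons, which names BSCL2 and the readthrough gene HNRNPUL2-BSCL2, had a signal of 1331 in OIS and 974 in RS, against 712 in growing cells, 1.87-fold and 1.37-fold higher. The probe set naming the readthrough gene and HNRNPUL2 was 1.49-fold and 1.40-fold lower.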

How the results depend on the processing

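Under the 8 alternatives the median log2 ratio of the splicing factor genes ranged from -0.33 to -0.26 for OIS over growing and from -0.52 to -0.29 for RS over growing. That of OIS over RS ranged from -0.08 to 0.11, so its sign depended on the processing. The count past 1.5-fold in OIS over growing was 4, all lower, against 14.8% of all measured genes. It became 8 lower after quantile normalization, against 13.3%, and 9 lower of 28 without suffixed probe sets, against 15.4%. At 2-fold it was 0, where 6.63% of all genes were lower. In RS over growing it was 10, all lower, and 2 at 2-fold, and it was 7 lower and 1 higher both with the median of all probe sets and, of 28, without cross-hybridizing ones, HNRNPA1 being the higher gene. For OIS over RS it was 1, and became 0 at 2-fold and 2 with the lower floor, with a pseudocount, with the median of all probe sets and without cross-hybridizing probe sets. HNRNPA2B1 in RS over growing turned to 0.13 without suffixed probe sets, and the cause was not tested. Of 492 recomputed ratios of named genes, 19 others moved by more than the SD between probe sets. HNRNPA1 in RS over growing became 0.66 both with the median of all probe sets and without suffixed ones, against -0.26. Without suffixed probe sets HNRNPDL, HNRNPM and HNRNPR became -0.14, -0.15 and -0.10 in RS over growing, short of 1.5-fold. HNRNPD, HNRNPL, HNRNPUL1 and PTBP2 stayed at least 1.5-fold lower there. Suffixed probe sets carry 23 of the 35 measured genes, so leaving them out changes the probe set of most. No paired analysis was possible because each condition has 1 array.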

Other observations

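Among 67 measured splicing regulators outside the SR and hnRNP names, OIS and RS differed most for RBM24, a regulator of muscle splicing. The genes named here were read from the brightest probe set alone, without a check of their other probe sets. The RBM24 signal was 1329 in OIS, 6657 in RS and 3070 in growing cells, 2.31-fold lower in OIS and 2.17-fold higher in RS than in growing cells. MSI2, an RNA-binding protein of stem cells, had 712 in OIS, 1414 in RS and 918 in growing cells. CELF2 was lower in both, with 257 in OIS, 308 in RS and 664 in growing cells. KHSRP, which promotes decay of AU-rich mRNAs, had 3928 in OIS, 2508 in RS and 5398 in growing cells, 2.15-fold lower in RS and 1.37-fold lower in OIS. As a whole these 67 genes had medians of -0.19 in OIS and -0.14 in RS, with 51 (76.1%) and 44 (65.7%) below 0, against 49.9% and 49.3% of all measured genes.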
